A study of Mus musculus with 35 samples.

Results

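The response of PMN-MDSC and of M-MDSC in the tumor to poly(I:C)c was compared in mice with orthotopic pancreatic tumors, and the difference between both responses was tested gene by gene as an interaction of treatment and cell type. Of 35 libraries in the count table, 16 belonged to these tumor groups and 15 were used, since 1 treated M-MDSC library (S12) held 10 counts in all. Of 53379 annotated genes, 8385 (15.7%) averaged 25 counts or more across the 15 libraries and were tested. The hosts were young adult female wild-type C57BL/6 mice carrying an orthotopic pancreatic tumor grown from T110299, a single cell line from a genetically engineered mouse with pancreatic cancer, so every group shared this tumor line and an intact host immune system. Mice received 50 µg poly(I:C) complexed with in vivo-jetPEI (poly(I:C)c) i.v. on days 18 and 20 after tumor induction, or were left without it (untreated; the methods name glucose as the control, while the account of the sequenced mice names no vehicle), and no carrier without RNA served as a control. CD11b+ cells were enriched and sorted as CD11b+Ly6CloLy6G+ (PMN-MDSC) or CD11b+Ly6ChiLy6G- (M-MDSC), which left 4 untreated PMN-MDSC, 4 treated PMN-MDSC, 4 untreated M-MDSC and 3 treated M-MDSC libraries. Both cell types can come from 1 mouse, so libraries of the 2 cell types are not fully independent.

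Poly(I:C) mimics the double-stranded RNA of viruses and, once carried into the cytosol, is sensed by the RIG-I-like helicases, chiefly MDA5, and by TLR3 in endosomes, and both routes lead to type I interferon. Interferon signals through its receptor to transcription factors that bind interferon-stimulated response elements (ISRE) and switch on antiviral genes. PMN-MDSC and M-MDSC are the neutrophil-like and monocyte-like forms of the immature myeloid cells that build up in tumors and restrain T cells, and both carry the interferon receptor.

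The libraries held 793070 to 4357105 counts. Untreated PMN-MDSC held 1648775 to 2502390, treated PMN-MDSC 2192320 to 3652121, untreated M-MDSC 793070 to 3604818 and treated M-MDSC 2373408 to 4357105 counts. The 21 pairs of libraries within a group differed by 6.88 to 45 times the counting noise (chi-square per degree of freedom), and no pair held identical values. Levels are given as CPM (counts scaled to a library of 1e6 counts) after TMM scaling, and the limit that a count of 0 allows (3 counts, counting error only) was 0.634 to 3.92 CPM per library.

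The labels were checked against 12 neutrophil and 13 monocyte and macrophage markers. The summed neutrophil markers were 1570 to 5450 CPM in untreated and 4500 to 13300 CPM in treated PMN-MDSC, against 302 to 871 CPM in untreated and 237 to 1070 CPM in treated M-MDSC. Neutrophil markers were thus higher in every PMN-MDSC library than in any M-MDSC library. The summed monocyte and macrophage markers were 5300 to 6660 CPM in untreated and 4390 to 8010 CPM in treated PMN-MDSC, and 5000 to 6020 CPM in untreated and 5030 to 11100 CPM in treated M-MDSC. On this sum the cell types overlapped, which goes against a pure neutrophil label, and the name PMN-MDSC stands here for the sort gate. Single markers could differ: in untreated libraries Ccr2 was at 330 to 465 CPM in PMN-MDSC against 1100 to 1490 CPM in M-MDSC. C1qa went the other way, at 544 to 665 against 128 to 321 CPM. With treatment the mean of Ccr2 moved from 366 to 46.5 CPM in PMN-MDSC and from 1320 to 184 CPM in M-MDSC. The mean of C1qa moved from 601 to 1050 CPM and from 219 to 1100 CPM. Ly6g, the antigen of the PMN-MDSC gate, was at 0 to 9.23 CPM in untreated and 5.11 to 86.7 CPM in treated PMN-MDSC, and at most 1.4 CPM in M-MDSC. The untreated PMN-MDSC libraries S03 (0 counts) and S23 (2 counts, 0.982 CPM) lay within the M-MDSC range of Ly6g. S03 also had the lowest neutrophil sum of the PMN-MDSC libraries (1570 CPM). Its monocyte and macrophage sum (6660 CPM) and tumor epithelium sum (795 CPM) were the highest of the untreated libraries. Ly6c2, part of the M-MDSC antigen, was at 1.96 to 11.2 and 68.8 to 279 CPM in untreated and treated PMN-MDSC, and at 41.8 to 146 and 2.75 to 594 CPM in untreated and treated M-MDSC. The value of 2.75 CPM (13 counts) belonged to the library labelled treated M-MDSC S28, against 419 and 594 CPM in S32 and S16, so that S28 lay within the untreated PMN-MDSC range of this antigen and went against its gate. S28 also had the highest monocyte and macrophage sum and the lowest neutrophil sum. It is kept under its label, and without it the counts of called genes were 383 in PMN-MDSC, 445 in M-MDSC and 196 in both, against 252, 676 and 160 with it. The interaction without it gave 1 gene against 2, and 445 genes against 720 at an unadjusted p under 0.05. In sorted bulk samples fewer cells of a type and less RNA per cell cannot be told apart, and the part that marker levels have in the results was not tested.

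**Figure D1:**
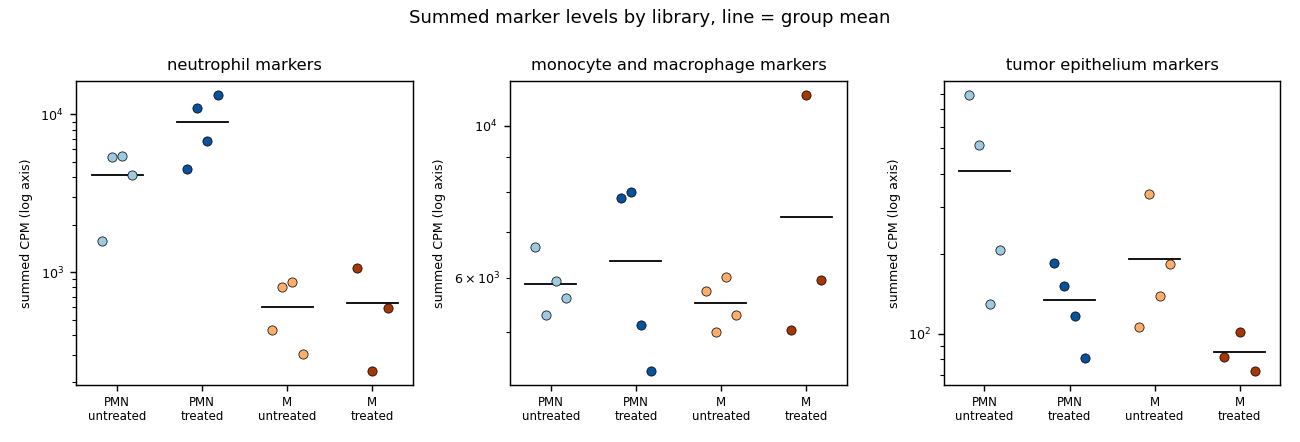
Summed CPM (log axis) of 12 neutrophil, 13 monocyte and macrophage and 8 tumor epithelium markers in the 4 groups, with 1 point per library and a line at each group mean. PMN-MDSC libraries lie above M-MDSC libraries for neutrophil markers (lowest 1570 against highest 1070 CPM) and overlap with them for monocyte and macrophage markers.

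Poly(I:C)c changed genes in both cell types, with more of them called in M-MDSC. In PMN-MDSC 176 genes rose (2.1% of those tested) and 76 fell (0.906%), and in M-MDSC 405 rose (4.83%) and 271 fell (3.23%; edgeR's quasi-likelihood test, Benjamini-Hochberg adjusted p under 0.05). In both cell types together 113 genes rose (1.35%) and 47 fell (0.561%), which was 64.2% of the genes that rose and 61.8% of those that fell in PMN-MDSC, and 27.9% and 17.3% of those in M-MDSC. With edgeR 0 genes passed in both cell types with opposite signs (9 at an unadjusted p under 0.05; 1 with DESeq2 and 2 with limma voom after adjustment). The PMN-MDSC count of 252 fell to 137, 157, 143 and 153 without the libraries S03, S07, S19 and S31 and rose to 383 without S28. The M-MDSC count of 676 fell to 341, 422, 445 and 310 without S04, S20, S28 and S32, and the shared count of 160 fell to 89, 103, 95 and 100 without S03, S07, S19 and S32. The order of the cell types turned when each was fitted on its own libraries, with 282 genes called in PMN-MDSC against 240 in M-MDSC, and the difference in counts was not tested.

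The directions of both responses matched for most of the genes called. Of the 252 genes called in PMN-MDSC, 249 (98.8%) had the same sign in M-MDSC, and of the 676 called in M-MDSC, 616 (91.1%) had the same sign in PMN-MDSC, against 65.3% of all genes tested. The log2 fold changes of both cell types correlated across the 8385 genes (Pearson r = 0.537, Spearman rho = 0.437), which describes genes of the same 15 libraries and not independent replicates. Without a model, the treated libraries lay above all untreated libraries for 534 genes in PMN-MDSC (6.37%) and for 812 genes in M-MDSC (9.68%). In both cell types at once, treated and untreated libraries were apart for 388 genes in the same direction and for 4 genes in opposite directions.

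**Figure D2:**
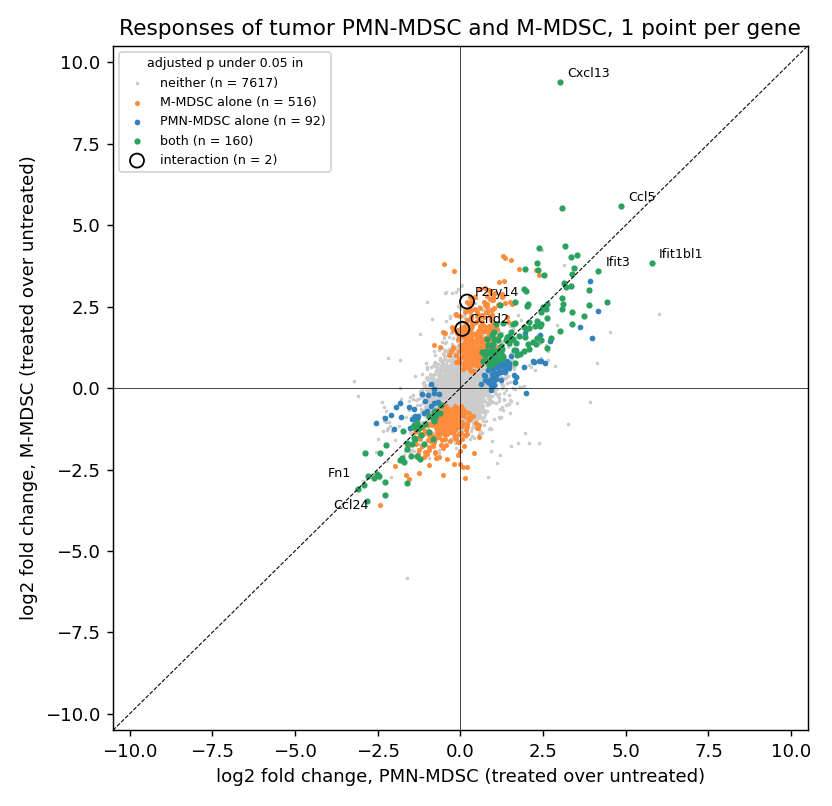
Log2 fold change of poly(I:C)c in PMN-MDSC (horizontal) against M-MDSC (vertical), 1 point per gene, for the 8385 genes tested, with genes called in both or in a single cell type in colour and the 2 interaction genes circled. The genes called in both lie at the upper right (113) and lower left (47), and the position of Cxcl13, at 0 in all untreated M-MDSC libraries, depends on the prior count of the fit.

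Ifit3, an antiviral protein of the IFIT family, was among the genes that rose most in both cell types. Its level was 13.6, 33.1, 26.1 and 40.8 CPM in untreated and 425, 394, 335 and 908 CPM in treated PMN-MDSC, and 21.3, 24.8, 21.6 and 22.2 CPM in untreated and 243, 154 and 419 CPM in treated M-MDSC. Every treated library lay above every untreated library of its cell type, with library S31 highest. The log2 fold change was 4.17 ± 0.41 (SE) in PMN-MDSC (edgeR, adjusted p = 4.3e-05) against 3.60 ± 0.42 in M-MDSC (adjusted p = 0.00023), and the difference of 0.58 had a 95% interval of -0.59 to 1.75. Ifit3 lies at chr19:34583531-34588731 (GRCm38), and its reads may be split with those of the near-identical neighbour Ifit3b.

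Ccl5, a chemokine that draws T cells and NK cells, rose in both cell types. It was at 27.1, 27.3, 12.4 and 8.84 CPM in untreated and 444, 689, 426 and 594 CPM in treated PMN-MDSC, and at 20.8, 21.5, 13.1 and 0 CPM in untreated and 196, 935 and 998 CPM in treated M-MDSC. The groups did not overlap, and the treated M-MDSC library S16 was the lowest treated library. The log2 fold change was 4.85 ± 0.64 in PMN-MDSC (edgeR, adjusted p = 0.00057) against 5.58 ± 0.68 in M-MDSC (adjusted p = 0.00042), a difference of -0.73 (95% interval -2.55 to 1.08).

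Ifi44, an interferon-induced gene, rose by a log2 fold change of 3.53 ± 0.33 in PMN-MDSC and 4.09 ± 0.34 in M-MDSC. Its levels were 3.21 to 5.8 CPM in untreated and 26 to 69.1 CPM in treated PMN-MDSC, and 3.92 to 6.04 CPM in untreated and 58.1 to 103 CPM in treated M-MDSC, with no overlap. Ly6a, the surface antigen Sca-1 that interferon is known to raise on leukocytes, rose by 3.34 ± 0.29 and 4.01 ± 0.31, from 6.82 to 11.7 CPM to 62.3 to 114 CPM in PMN-MDSC and from 6.71 to 11.8 CPM to 96.8 to 206 CPM in M-MDSC. Irf7, the transcription factor that amplifies type I interferon production, rose by 3.88 ± 0.28 in PMN-MDSC and 3.02 ± 0.28 in M-MDSC. It was at 40.6 to 73.2 and 527 to 915 CPM in untreated and treated PMN-MDSC, and at 79.7 to 144 and 645 to 1090 CPM in untreated and treated M-MDSC. None of these genes lost its call in either cell type when any 1 library was left out.

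Of the other genes that rose most in both, Ifit1bl1 (an IFIT family gene), Ifit3b, Ly6i (a relative of Ly6a) and Oasl1 (a relative of the 2′-5′ oligoadenylate synthetases) had log2 fold changes of 3.15 to 5.78 in PMN-MDSC and 3.21 to 3.84 in M-MDSC. Saa3, an acute phase protein, and Slfn4, a Schlafen family gene of myeloid cells, rose by 3.18 and 3.35 in PMN-MDSC and by 4.35 and 3.13 in M-MDSC. In library S28 Slfn4 was at 113 CPM and Ifit1bl1 at 9.3 CPM, against 1870 and 1510 CPM and 86.1 and 108 CPM in the other treated M-MDSC libraries. S28 thus lay within the untreated M-MDSC range of Slfn4 (92.8 to 158 CPM) and above that of Ifit1bl1 (2.81 to 7.38 CPM). The call of Saa3 in PMN-MDSC was lost without S03, S07, S19 or S31 (edgeR, adjusted p up to 0.076).

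Promoter stretches are printed for those of these 10 genes whose window held the ISRE letters: Ifit3, Ifit3b, Ifit1bl1 and Saa3. The windows of Ifi44, Oasl1 and Slfn4 held no match before the start. The stretches come from the RefSeq promoter windows (GRCm38.p6, 250 bases before to 50 after a start) and are written 5′ to 3′ on the gene's strand, with the match in capitals. The letters searched were GAAANNGAAA on both strands for the ISRE.
Ifit3 (chr19:34583363-34583392, plus strand): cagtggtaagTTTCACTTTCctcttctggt
Ifit3 (chr19:34583397-34583426, plus strand): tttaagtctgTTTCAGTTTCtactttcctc
Ifit1bl1 (chr19:34602053-34602082, minus strand): actctgtaggTTTCATTTTCtgtaggttgg
Ifit1bl1 (chr19:34599431-34599460, minus strand): actctgtaggTTTCATTTTCtgtaagttgg
Saa3 (chr7:46715782-46715811, minus strand): gttatcttctGAAAGAGAAAttatgggtaa
The Ifit3 matches began 156 and 122 bases before the start, those of Ifit1bl1 104 and 23 bases before separate starts, and that of Saa3 125 bases before it. The window of Ifit3b, at chr19:34607759-34607788 and chr19:34607793-34607822, held the same 2 stretches of 30 bases letter for letter.

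Of the 113 genes that rose in both cell types, 86 had a window, and 31 of them (36%) held the ISRE letters, against 286 of 6351 tested genes with a window (4.5%). Of the 47 genes that fell in both, 27 had a window and 0 held these letters. The GAS letters TTCNNNGAA, the gamma-activated sequence, were in 11 of 86 (12.8%) and 1 of 27 (3.7%) of these windows, against 8.17% of all. Among genes whose response was higher in PMN-MDSC at an unadjusted interaction p under 0.05, 21 of 273 windows (7.69%) held the ISRE letters, and among those higher in M-MDSC 12 of 272 (4.41%). A match describes the letters of the window and not a bound site.

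Fn1, which encodes the matrix protein fibronectin, fell in both cell types. It was at 6550, 3010, 5530 and 4660 CPM in untreated and 848, 1060, 408 and 322 CPM in treated PMN-MDSC, and at 7540, 5470, 8180 and 8250 CPM in untreated and 1930, 288 and 617 CPM in treated M-MDSC. Every treated library lay below every untreated one. The log2 fold change was -2.90 ± 0.52 in PMN-MDSC (edgeR, adjusted p = 0.0048) against -2.96 ± 0.58 in M-MDSC (adjusted p = 0.0066), with a difference of 0.06 (95% interval -1.46 to 1.58).

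Ccl24, a chemokine for eosinophils that marks alternatively activated macrophages, was at 62.8, 39.4, 35.7 and 37.8 CPM in untreated and 2.83, 7.56, 8.83 and 1.47 CPM in treated PMN-MDSC. In M-MDSC it was at 69, 41.6, 31.2 and 39.2 CPM in untreated and 9.65, 5.07 and 1.4 CPM in treated libraries. The groups did not overlap in either cell type, and the log2 fold change was -3.08 ± 0.49 in PMN-MDSC (edgeR, adjusted p = 0.002) against -3.09 ± 0.55 in M-MDSC (adjusted p = 0.0034). Cdh1, which encodes E-cadherin, fell by 2.62 ± 0.40 and 2.75 ± 0.46 on the log2 scale. Summed tumor epithelium markers were 129 to 795 and 80.8 to 185 CPM in untreated and treated PMN-MDSC and 106 to 337 and 72.3 to 101 CPM in untreated and treated M-MDSC (5530 CPM in bulk tumor), and their part in the Cdh1 result was not tested. This sum holds Cdh1 itself. The other 7 markers summed to 92.7 to 647 and 72 to 166 CPM in untreated and treated PMN-MDSC, and to 18.5 to 243 and 64.3 to 90.9 CPM in untreated and treated M-MDSC, with overlap in both.

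Ednrb, the endothelin receptor B, fell by 2.53 in PMN-MDSC and by 2.63 in M-MDSC on the log2 scale, and Kbtbd11 and Kmo, an enzyme of tryptophan breakdown, fell by 2.45 and 2.43 in PMN-MDSC and also passed in M-MDSC. Nrg1, a ligand of ERBB receptors, Flrt3, Plcb1, a phospholipase C, and Ciita, the master regulator of MHC class II genes, had log2 fold changes of -2.82 to -2.27 in PMN-MDSC and of -3.47 to -2.68 in M-MDSC. Of these, Ciita, at an adjusted p of 0.048 in PMN-MDSC and 0.049 in M-MDSC (edgeR), kept its call in PMN-MDSC only without S28 or S32 and in M-MDSC only without S31 or S28, with adjusted p-values up to 0.1 and 0.11. Nrg1, Flrt3 and Plcb1 lost theirs in PMN-MDSC without S03, S19, S15, S27 or S31, and Nrg1 also without S20 (adjusted p up to 0.12, 0.1 and 0.08). Over the 47 genes that fell in both, the median log2 fold change was -1.41 in PMN-MDSC against -1.56 in M-MDSC, and 31 fell further in M-MDSC and 16 in PMN-MDSC. Over the 113 genes that rose in both it was 1.76 and 1.58, and 65 rose further in PMN-MDSC and 48 in M-MDSC.

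The interaction, which asks whether the response itself differed between the cell types, passed the threshold for 2 of 8385 genes (0.0239%), and for 720 genes (8.59%) at an unadjusted p under 0.05. Of the latter, 366 (4.36%) had the higher response in PMN-MDSC and 354 (4.22%) in M-MDSC. Of the 92 genes called in PMN-MDSC alone, 36 (39.1%) had an unadjusted interaction p under 0.05, and of the 516 called in M-MDSC alone 251 (48.6%), against 22 of the 160 shared genes (13.8%). A call in a single cell type was therefore mostly not matched by a detected difference between the cell types. Such genes were picked, by the same fit, for a call in 1 cell type and none in the other. A higher share among them than among shared genes is thus partly built in and was not tested. The genes that rose in M-MDSC alone had a median log2 fold change of 1.47 there and of 0.49 in PMN-MDSC. The median SE was 0.25 for a fold change in PMN-MDSC, 0.27 in M-MDSC and 0.37 for the difference. The count of 2 was 22 with DESeq2 and 3 with limma voom, and 0 with upper-quartile scaling and 0 without robust estimation in edgeR (both genes at an adjusted p of 0.053 and 0.055).

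Ccnd2, which encodes cyclin D2, a driver of entry into the cell cycle, rose in M-MDSC alone. It was at 188, 192, 133 and 145 CPM in untreated and 167, 190, 153 and 175 CPM in treated PMN-MDSC, and at 48.3, 68.4, 59 and 52.3 CPM in untreated and 181, 158 and 265 CPM in treated M-MDSC. The treated M-MDSC libraries lay within or above the range of the PMN-MDSC libraries, in which treated and untreated overlapped. The log2 fold change was 0.06 ± 0.19 in PMN-MDSC against 1.82 ± 0.20 in M-MDSC, and the difference was -1.75 ± 0.28 (edgeR, interaction adjusted p = 0.047, 95% interval -2.34 to -1.17).

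P2ry14, a receptor for UDP-sugars on myeloid cells, had the same pattern. It was at 29.6, 40, 40.1 and 37.3 CPM in untreated and 46.8, 45.4, 33.9 and 43.1 CPM in treated PMN-MDSC, and at 8.42, 14.1, 10.4 and 5.23 CPM in untreated and 35.8, 65.3 and 87 CPM in treated M-MDSC. Only the M-MDSC groups were apart. The log2 fold change was 0.20 ± 0.26 in PMN-MDSC against 2.66 ± 0.30 in M-MDSC, and the difference was -2.46 ± 0.39 (edgeR, interaction adjusted p = 0.047, 95% interval -3.29 to -1.62). The direction held without any 1 library for Ccnd2 (-1.9 to -1.5) and P2ry14 (-2.73 to -2.15). The adjusted p passed 0.05 only without S16 and S28 for Ccnd2 (range 0.021 to 0.19) and only without S16 for P2ry14 (range 0.006 to 0.19). A replicate block by the running number of the libraries, added after seeing the data, used the 14 libraries with a partner, without S11. On these 14 libraries 0 genes passed without the block, so both calls were already lost there. With the block the differences were -1.71 for Ccnd2 and -2.47 for P2ry14 (edgeR, adjusted p = 0.106 and 0.117). Without any 1 library, the count of genes past the threshold ranged from 0 to 24, the latter without S16.

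The next 3 genes by interaction p did not pass with edgeR, and were named after their values were seen. DESeq2 called all 3 and limma voom called Bank1. Iigp1, an immunity-related GTPase that attacks the vacuoles of intracellular pathogens, was at 51.7, 84.7, 35.3 and 51.1 CPM in untreated and 94.6, 84.5, 48.8 and 42.1 CPM in treated PMN-MDSC, and at 10.7, 27.5, 21.9 and 11.8 CPM in untreated and 101, 149 and 137 CPM in treated M-MDSC. Its interaction adjusted p was 0.17 (edgeR; difference -2.51). Bank1, an adaptor of B cell receptor signalling, was at 26.1 to 34.4 and 10.3 to 21.7 CPM in untreated and treated PMN-MDSC and at 5.23 to 12.9 and 18.9 to 27.1 CPM in untreated and treated M-MDSC (difference -2.11, interaction adjusted p = 0.12). Its groups were apart in both cell types, in opposite directions, and the fold change passed in M-MDSC (edgeR, adjusted p = 0.012) but not in PMN-MDSC (adjusted p = 0.12). Tnfsf14, the cytokine LIGHT, was at 9.86 to 16.8 and 12.8 to 20.9 CPM in PMN-MDSC and fell from 22.1 to 34.8 CPM to 4.44 to 9.25 CPM in M-MDSC (difference 2.40, interaction adjusted p = 0.09).

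**Figure D3:**
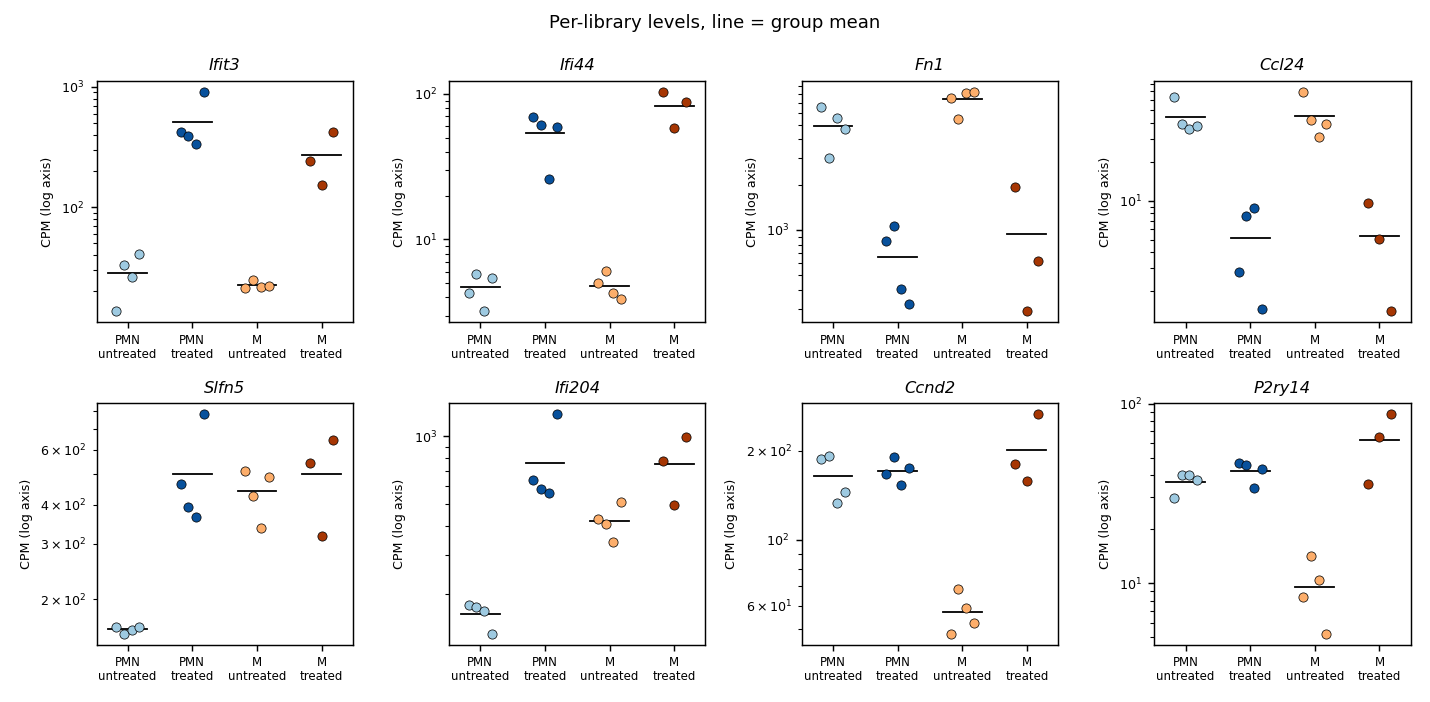
CPM per library (log axis, 1 point per library, line at the group mean) of 8 genes in the 4 groups. Slfn5 and Ifi204 start lower in PMN-MDSC than in M-MDSC. Treated and untreated libraries are apart in both cell types for Ifit3, Ifi44, Fn1 and Ccl24, and in M-MDSC alone for Ccnd2 and P2ry14.

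Of 35 antiviral effectors tested (Ifit, Mx, OAS and related genes), 28 rose in PMN-MDSC and 21 in M-MDSC, all 21 shared (2.1%, 4.83% and 1.35% of all genes). The median log2 fold change was 2.31 in PMN-MDSC and 1.23 in M-MDSC, against 0.0044 and 0.0015 over all genes tested. The difference was positive for 31 of the 35 (49.3% of all genes), and 11 (31.4%) had an unadjusted interaction p under 0.05 with the higher response in PMN-MDSC (4.36% of all genes). Before treatment 28 of the 35 were higher in M-MDSC, and after it 11 were (50.2% and 55.4% of all genes). The list thus started higher in M-MDSC and ended at like or higher levels in PMN-MDSC. Library S28 had the lowest mean level of the list among treated libraries, and without any 1 library the 11 genes were 9 to 14.

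Ifi204, a DNA sensor of the PYHIN family, and Slfn5, of the Schlafen family, follow this pattern and were named after their values were seen, as was Ifitm3, which blocks virus entry. Ifi204 was at 179, 176, 169 and 134 CPM in untreated and 639, 585, 559 and 1250 CPM in treated PMN-MDSC, and at 433, 408, 341 and 512 CPM in untreated and 775, 497 and 992 CPM in treated M-MDSC. Treated PMN-MDSC lay above all untreated libraries, whereas the M-MDSC groups overlapped. Slfn5 was at 163, 155, 159 and 163 CPM in untreated and 467, 395, 367 and 778 CPM in treated PMN-MDSC, and at 514, 427, 338 and 491 CPM in untreated and 544, 317 and 643 CPM in treated M-MDSC. Its treated PMN-MDSC libraries reached the level that M-MDSC held with or without treatment. The log2 fold change of Slfn5 was 1.65 in PMN-MDSC (edgeR, adjusted p = 0.0013) against 0.18 in M-MDSC (adjusted p = 0.75), with an interaction p of 0.0011, adjusted 0.39 (DESeq2 called this difference). Its promoter window held 1 match to the ISRE letters, 155 bases before a start, printed here because Slfn5 was called in PMN-MDSC alone. The match lies inside the gene as annotated (chr11:82951349-82964840), so the start that it precedes is downstream of the gene's first base. The same search returned no match for Ifi204 or Ifitm3, which may lack a window.
Slfn5 (chr11:82951937-82951966, plus strand): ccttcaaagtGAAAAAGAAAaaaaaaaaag
Ifi206, another PYHIN gene, rose in both, by 3.37 and 1.96 on the log2 scale. The log2 fold changes of Ifi204 were 2.20 and 0.84 and those of Ifitm3 1.68 and 0.35, with interaction p-values of 0.0031 and 0.0027 (edgeR) that did not pass after adjustment.

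Of 18 Schlafen and PYHIN genes tested, 12 rose in PMN-MDSC against 8 in M-MDSC with edgeR (2.1% and 4.83% of all genes), 14 against 8 with DESeq2 and 13 in each with limma voom. An unadjusted interaction p under 0.05 was found for 6 with the higher response in PMN-MDSC (4.36% of all genes) and for 1 with the higher response in M-MDSC (4.22%). The level pattern was alike: 14 of 18 were higher in M-MDSC before treatment and 8 after it (50.2% and 55.4% of all genes). The M-MDSC count of 8 was 5 without S08, S20 or S24 and 4 without S32. All 5 genes of the ISG15 conjugation system that rose with edgeR, of 6 tested, rose in both cell types (1.35% of all genes). DESeq2 and limma voom each called 6 in PMN-MDSC and 5 in M-MDSC.

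The MHC class I pathway, which presents peptides to CD8 T cells, rose in part in both cell types. Of 24 genes tested, 11 rose in PMN-MDSC and 12 in M-MDSC, 11 in both (2.1%, 4.83% and 1.35% of all genes), with median log2 fold changes of 0.72 and 0.53. An unadjusted interaction p under 0.05 was found for 1 gene, against 8.59% of all genes. H2-K1, a classical class I heavy chain, was at 833, 776, 817 and 876 CPM in untreated and 2060, 2110, 2050 and 2610 CPM in treated PMN-MDSC, and at 747, 844, 768 and 534 CPM in untreated and 1720, 2250 and 2420 CPM in treated M-MDSC. All treated libraries were above all untreated ones, and the log2 fold change was 1.42 ± 0.19 and 1.56 ± 0.20 (edgeR, adjusted p = 0.00043 and 0.00033, difference -0.14, 95% interval -0.71 to 0.44). H2-T22, a nonclassical relative, rose by 2.26 and 1.89 on the log2 scale. H2 genes share long stretches of sequence, so reads may be split among them.

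Of 7 MHC class II pathway genes tested, 3 fell in PMN-MDSC against 2 in M-MDSC with edgeR (0.906% and 3.23% of all genes), 4 against 2 with DESeq2 and 7 in each with limma voom, with median log2 fold changes of -2.22 and -1.24. Cd74, the invariant chain that escorts class II molecules, was at 6310, 4350, 4950 and 4830 CPM in untreated and 1570, 2030, 1110 and 380 CPM in treated PMN-MDSC. In M-MDSC it was at 3030, 2880, 3810 and 2550 CPM in untreated and 1010, 2520 and 361 CPM in treated libraries. The groups were apart in both cell types, with S28 the highest of the treated M-MDSC libraries, and the log2 fold change was -2.01 in PMN-MDSC (edgeR, adjusted p = 0.043) against -1.24 in M-MDSC (adjusted p = 0.19). The Cd74 call in PMN-MDSC held only without S15, S28 or S32 (adjusted p up to 0.11), and the M-MDSC median of the list was -2.54 without S28 and -0.80 without S32. The summed markers of conventional dendritic cells, which express these genes strongly, were 13.1 to 29.7 CPM in the untreated and 0.98 to 13 CPM in the treated libraries of both cell types, and their part was not tested.

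Glycolysis and hypoxia genes had the largest shares, among the gene lists, of genes with an unadjusted interaction p under 0.05 and a higher response in PMN-MDSC. Of 18 glycolysis genes tested, 12 (66.7%) had an unadjusted interaction p under 0.05 with the higher response in PMN-MDSC, against 4.36% of all genes, with median log2 fold changes of 0.47 in PMN-MDSC and -0.46 in M-MDSC. Of these genes 0 rose in PMN-MDSC with edgeR (5 at an unadjusted p under 0.05; 2 with DESeq2 and 1 with limma voom after adjustment) and 2 fell in M-MDSC (3.23% of all genes; 3 with DESeq2 and 5 with limma voom). Hk2, hexokinase 2, was at 441, 294, 352 and 324 CPM in untreated and 204, 241, 343 and 327 CPM in treated PMN-MDSC, and at 468, 327, 352 and 432 CPM in untreated and 217, 177 and 154 CPM in treated M-MDSC. Hk2 overlapped in PMN-MDSC and not in M-MDSC, where the log2 fold change was -1.11 (edgeR, adjusted p = 0.007). Slc2a1, the glucose transporter GLUT1, was at 214 to 311 CPM in untreated PMN-MDSC and at 167, 181, 328 and 440 CPM in the treated libraries S11, S15, S27 and S31, and fell in M-MDSC from 230 to 375 CPM to 91.2 to 181 CPM. Its call in M-MDSC (log2 fold change -1.20; edgeR, adjusted p = 0.042) held only without S03, S11, S15, S27, S31 or S16 (adjusted p up to 0.17). Tpi1, triosephosphate isomerase, was at 112 to 132 and 149 to 239 CPM in untreated and treated PMN-MDSC, apart from each other, and at 140 to 228 and 131 to 170 CPM in M-MDSC, with an interaction p of 0.0038 (edgeR, adjusted 0.44).

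Of 15 hypoxia response genes tested, 10 (66.7%, against 4.36% of all genes) had an unadjusted interaction p under 0.05 with the higher response in PMN-MDSC by edgeR and by DESeq2 and 6 by limma voom, with median log2 fold changes of 0.29 in PMN-MDSC and -0.92 in M-MDSC. Of these genes 5 fell and 1 rose in M-MDSC (3.23% and 4.83% of all genes), whereas 0 rose in PMN-MDSC with edgeR (2 at an unadjusted p under 0.05; 2 with DESeq2 and 1 with limma voom after adjustment). Hif1a, the oxygen-sensitive transcription factor, was at 923, 617, 624 and 540 CPM in untreated and 457, 433, 415 and 426 CPM in treated PMN-MDSC, and at 1500, 959, 1140 and 1180 CPM in untreated and 546, 395 and 321 CPM in treated M-MDSC. It was lower in every treated library, with log2 fold changes of -0.64 (edgeR, adjusted p = 0.12) and -1.51 (adjusted p = 0.0013). Bnip3, a mitochondrial protein raised in hypoxia, was at 39.7 to 69.6 CPM in untreated PMN-MDSC and at 55, 56.9, 178 and 203 CPM in S11, S15, S27 and S31, and at 39.6 to 93.2 and 32.1 to 47.6 CPM in untreated and treated M-MDSC. Treated PMN-MDSC libraries thus split, with S27 and S31 high on Slc2a1 and Bnip3 and with mean list levels of 6.95 and 7.36 (log2 of CPM + 1) against 6.03 and 6.13 in S11 and S15. Untreated PMN-MDSC libraries had list levels of 6.26 to 6.66, so S27 and S31 lay above all of them and S11 and S15 below all of them, and the median of 0.29 joins libraries on both sides. The same libraries differed in marker sums: monocyte and macrophage markers summed to 5120 and 4390 CPM in S27 and S31 against 7860 and 8010 CPM in S11 and S15, and fibroblast markers to 23.7 and 30.9 CPM against 126 and 107 CPM. The part of these cells in the hypoxia and glycolysis values was not tested. Without any 1 library the glycolysis count of 12 was 8 to 14 and the hypoxia count of 10 was 7 to 11, and the 5 genes that fell in M-MDSC were 3 without S19 or S27, 2 without S04, S20, S24 or S28 and 1 without S32.

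Cell cycle genes leaned the other way. Of 17 tested, 6 rose in M-MDSC with edgeR (4.83% of all genes) and 11 with DESeq2 and with limma voom, against 0 in PMN-MDSC with edgeR (0 at an unadjusted p under 0.05 and 0 with DESeq2 and with limma voom after adjustment), with median log2 fold changes of 1.38 and 0.0076. Treated PMN-MDSC libraries split here too. The mean list level (log2 of CPM + 1) was 5.68 and 5.78 in S11 and S15, above all untreated PMN-MDSC libraries (4.8 to 5.3). It was 4.58 and 4.24 in S27 and S31, below all of them, so the median of 0.0076 joins libraries on both sides. The response was higher in M-MDSC at an unadjusted interaction p under 0.05 for 9 genes (52.9%), against 4.22% of all genes. Before treatment 0 of the 17 had a higher level in M-MDSC, and after it 16 had (50.2% and 55.4% of all genes). Mcm6, a subunit of the helicase that opens DNA for replication, and Pcna, its sliding clamp, were named after their values were seen. Mcm6 was at 70.8, 52.8, 53.8 and 33.9 CPM in untreated and 80.2, 77.9, 33 and 29.9 CPM in treated PMN-MDSC, and at 16.3, 34.2, 25.9 and 20.9 CPM in untreated and 90.5, 65.7 and 88 CPM in treated M-MDSC. The treated M-MDSC libraries lay above all untreated M-MDSC libraries, while the treated PMN-MDSC libraries split into S11 and S15 above and S27 and S31 below. Pcna was at 57.9 to 69.2 and 57.6 to 70.4 CPM in PMN-MDSC and rose from 40.5 to 53 CPM to 73.2 to 93.3 CPM in M-MDSC, with a log2 fold change of 0.79 (adjusted p = 0.0066 with edgeR and an interaction p of 0.0016 before adjustment). The count of 9 was 5 without S03, S07, S27 or S04 and 4 without S16 or S32, and the count of 6 was 3 without S07, S19, S20, S24 or S16 and 2 without S04 or S32.

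Of 21 genes of the macrophage lysosome, lipid handling and complement tested, 10 rose in M-MDSC and 3 in PMN-MDSC with edgeR (4.83% and 2.1% of all genes), with median log2 fold changes of 1.23 and 0.46. DESeq2 gave 12 against 5 and limma voom 10 against 8. Before treatment 3 of the 21 had a higher level in M-MDSC, and after it 9 had (50.2% and 55.4% of all genes). An unadjusted interaction p under 0.05 with the higher response in M-MDSC was found for 6 (28.6%, against 4.22% of all genes), for 7 with DESeq2 and for 2 with limma voom. With the replicate block by running number it was found for 2, against 8 on the same 14 libraries without the block. Nr1h3, the oxysterol receptor LXR alpha, was at 19.7, 13.3, 11.6 and 17.7 CPM in untreated and 101, 98.3, 54.9 and 58.8 CPM in treated PMN-MDSC, and at 8.42, 16.1, 10.7 and 13.1 CPM in untreated and 72.8, 148 and 216 CPM in treated M-MDSC. It rose in both without overlap, by log2 fold changes of 2.34 (edgeR, adjusted p = 0.00057) and 3.62 (adjusted p = 5.5e-05), with an interaction p of 0.017, adjusted 0.53. C1qa, a complement subunit made by macrophages and named after its values were seen, was at 544 to 665 and 767 to 1350 CPM in PMN-MDSC and at 128, 232, 321 and 195 CPM in untreated and 363, 2020 and 911 CPM in treated M-MDSC, with S28 highest. Gpnmb, a lysosomal glycoprotein, rose by 2.37 and 4.30 on the log2 scale, with the call in PMN-MDSC lost without S03, S07, S19, S23, S15, S27 or S31 (adjusted p up to 0.13). The count of 6 was 3 without S04, 11 without S16 and 1 without S28, the library with the highest macrophage marker sum, and the PMN-MDSC count of 3 was 1 without S03, S07, S19, S23 or S15 and 5 without S28.

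Of 18 chemokine ligand genes tested, 2 rose and 2 fell in PMN-MDSC and 7 rose and 2 fell in M-MDSC with edgeR, 4 in both, against 2.1% and 0.906% of all genes in PMN-MDSC and 4.83% and 3.23% in M-MDSC. The order of the counts that rose depended on the tool, with 2 against 8 by DESeq2 and 6 against 5 by limma voom. Cxcl13, which attracts B cells, was at 1.85, 1.74, 6.42 and 4.42 CPM in untreated and 28, 33.9, 27.4 and 33.3 CPM in treated PMN-MDSC. In M-MDSC it was at 0 in the 4 untreated libraries and at 6.44, 53.1 and 41.2 CPM in the treated libraries S16, S28 and S32. The mean of the treated libraries was at least 15.9-fold above the mean floor of the untreated ones (3 counts per library). S16 alone lay nearer the floor, which was 3.92 CPM in S24. Cxcl13 rose in both cell types, and the call in PMN-MDSC was lost without S03 or S07 (edgeR, adjusted p up to 0.058). The M-MDSC count of 7 was 4 without S04 or S08 and 3 without S24 or S28.

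For the remaining lists, the counts are from edgeR and stand beside 2.1% of all genes that rose and 0.906% that fell in PMN-MDSC, and 4.83% and 3.23% in M-MDSC. Of 16 neutrophil granule genes, 0 rose in PMN-MDSC with edgeR (5 at an unadjusted p under 0.05; 2 with DESeq2 and 1 with limma voom after adjustment), with median log2 fold changes of 1.26 in PMN-MDSC and 0.12 in M-MDSC. The difference was positive for 15 of the 16, with a median of 1.1. Of 14 genes of M1 macrophages, 4 rose and 1 fell in PMN-MDSC and 6 rose and 1 fell in M-MDSC, and of 14 genes of M2 macrophages 2 fell in PMN-MDSC, and 3 fell and 1 rose in M-MDSC. Of 17 nucleic acid sensors and adaptors, 7 rose in each cell type, 5 in both, and of 17 guanylate-binding proteins and immunity-related GTPases 5 rose in PMN-MDSC and 6 in M-MDSC, 3 in both. Of 21 interferon receptors, kinases, IRFs and feedback genes, 4 rose and 1 fell in PMN-MDSC, and 2 rose and 3 fell in M-MDSC. Of 16 NF-kB subunits and feedback inhibitors 2 fell in PMN-MDSC and 4 in M-MDSC.

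Of 18 genes of T cell suppression, checkpoints and costimulation, 2 rose and 2 fell in PMN-MDSC, and 3 rose and 2 fell in M-MDSC. Of 18 inflammatory cytokine and inflammasome genes 3 rose in PMN-MDSC, and 2 rose and 2 fell in M-MDSC. Of 10 chemokine and formyl peptide receptors 1 rose in PMN-MDSC against 4 in M-MDSC, and of 20 neutrophil surface and maturation genes 2 and 3. Of 12 sterol synthesis genes 2 fell in M-MDSC, of 19 immediate early and heat shock genes 1 fell in PMN-MDSC, and 1 rose and 2 fell in M-MDSC, and of 20 apoptosis genes 1 rose in each.

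**Figure D4:**
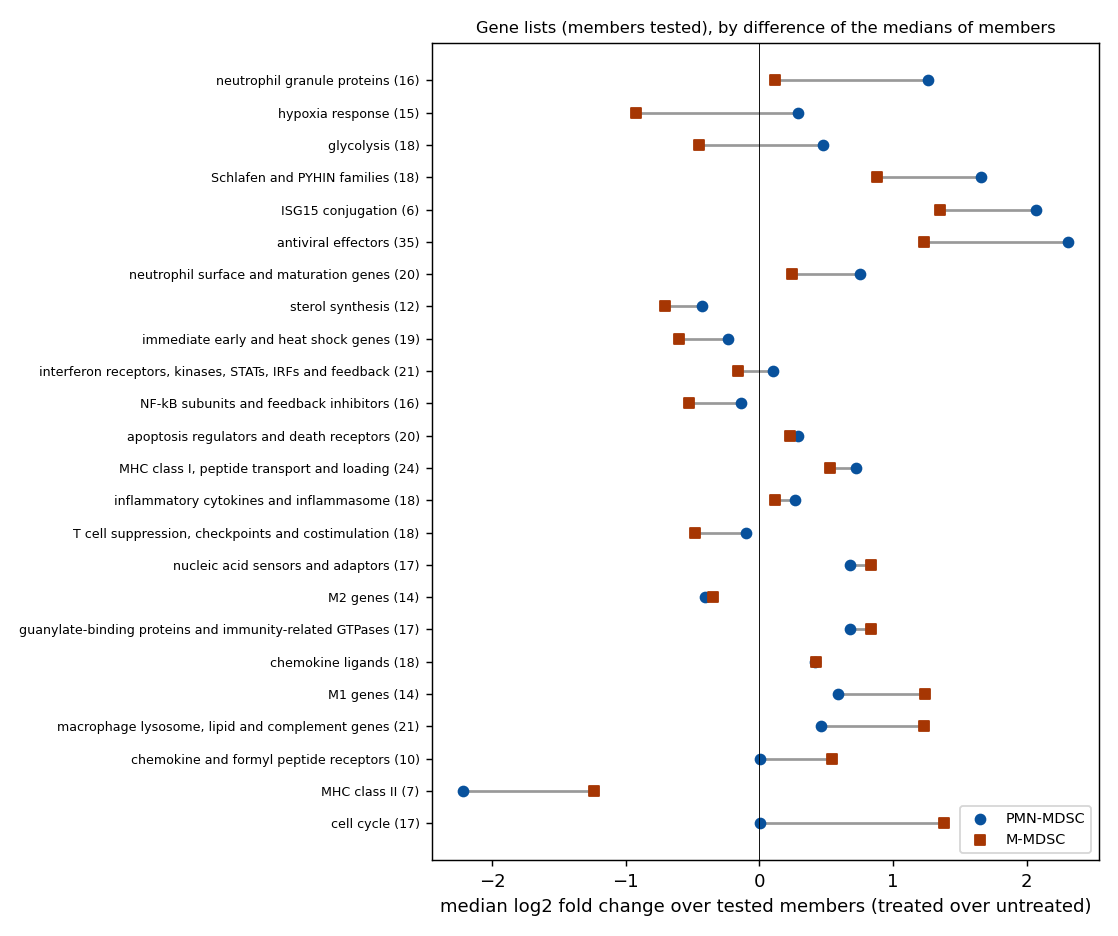
Median log2 fold change of each gene list in PMN-MDSC (circles) and M-MDSC (squares), with the number of genes tested beside each name and a bar joining both values. The antiviral list sits at 2.31 and 1.23, glycolysis and hypoxia lie above 0 in PMN-MDSC and below 0 in M-MDSC, and cell cycle lies at 0.0076 and 1.38.

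**Figure D5:**
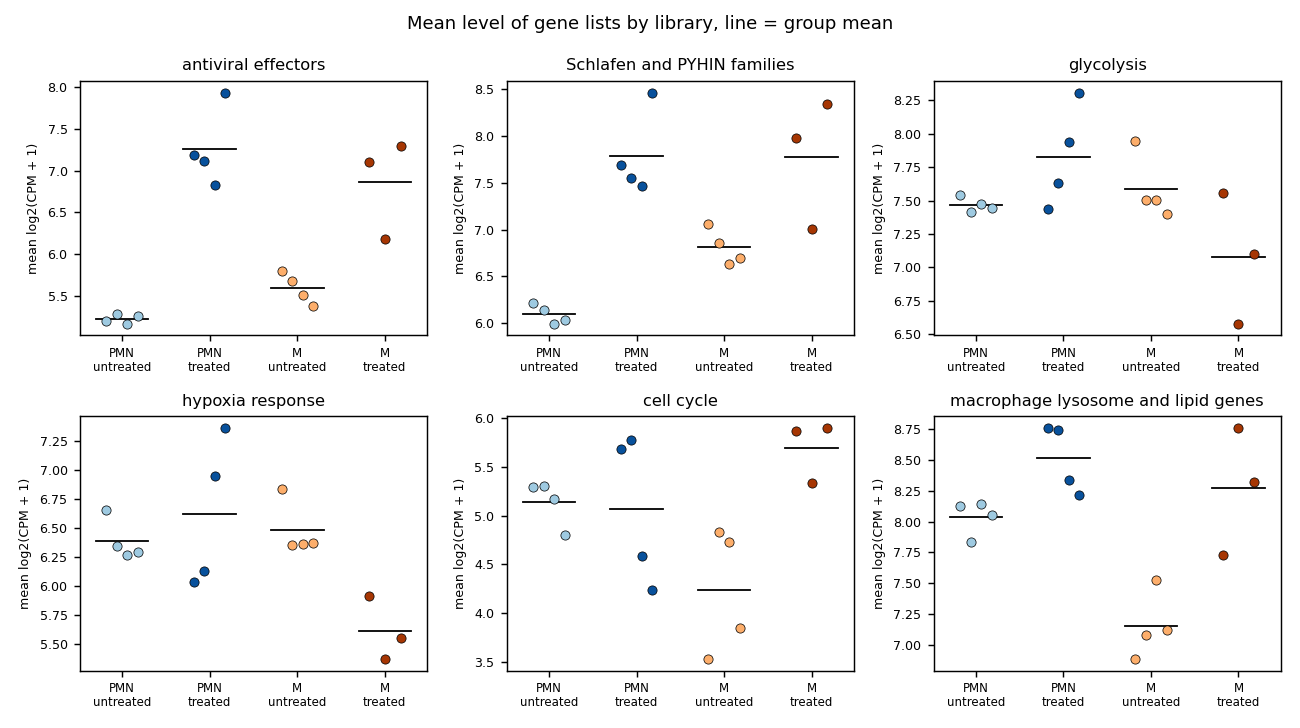
Mean level of 6 gene lists in each library (mean log2 of CPM + 1, 1 point per library) in the 4 groups. The hypoxia list splits the treated PMN-MDSC libraries into S11 and S15 (6.03 and 6.13) and S27 and S31 (6.95 and 7.36). The cell cycle list splits them the other way (5.68 and 5.78 against 4.58 and 4.24).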

How the data were processed

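RNA of sorted tumor PMN-MDSC and M-MDSC was sequenced with a stranded total RNA kit (SMARTer Pico v2, rRNA depleted, PCR amplified without molecular identifiers). The authors mapped the reads to mouse mm10 with ContextMap and BWA and counted fragments per gene, strand-specifically, with featureCounts (Subread 1.4.6-p3, per the labels) and Gencode annotation. The deposited values are raw counts per gene. Symbols were matched for 53274 of 53379 identifiers.

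From these counts, libraries under 1000 counts were left out, genes averaging 25 counts or more across the 15 libraries were kept, and edgeR 4.0.16 (R 4.3.3) was fitted with TMM scaling, 4 group means and robust quasi-likelihood F-tests. The contrasts were treated minus untreated in each cell type and the difference of both. P-values were Benjamini-Hochberg adjusted over all 8385 genes, and a gene was called at an adjusted p under 0.05. Errors are standard errors from the fit, and the interval of a difference is at 95%. The steps were tested on simulated data. A shared gene passed in both cell types with the same sign. DESeq2 1.42.0, limma 3.58.1 (voom), other scalings, filters and leave-outs were alternatives.

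Named genes were the 2 past the interaction threshold, the 10 up and 10 down shared genes with the largest smaller fold change, and, of each list, those with the smallest larger p. The members, lists and tests were chosen with earlier results of these data known. The sample titles repeat replicate numbers across cell types, and the running numbers of the table's columns follow the same order, but the labels do not state the tie, so columns were assigned to groups only. The fit had no block, a block by running number was added after seeing the data, and p-values measure the spread between these libraries. The low depth and 3 or 4 libraries a group limit precision, and limits from a count of 0 cover counting error only. The alleles of the mouse the tumor line came from are not reported here.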

Additional observations from a re-analysis of the deposited data

Results flagged for a closer look

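Of 131 groups of 4 libraries tested over the 44 genes with values in the text, 13 (9.92%) held a library far from the other 3, where chance gives about 1 in 20 for independent normal values. The levels were not log-transformed, many of these genes move together and some were named after their values were seen. The excess over 1 in 20 is therefore a description and not a test. Treated M-MDSC, with 3 libraries, could not be checked this way. In treated PMN-MDSC, library S31 was high on Ifit3 (908 CPM against 335 to 425), Ifit3b (78.9 against 27 to 35.2), Saa3 (661 against 138 to 213), Ifi204 (1250 against 559 to 639), Ifi206 (500 against 182 to 212) and H2-K1 (2610 against 2050 to 2110). In the same group S27 was low on Irf7 (527 CPM against 857 to 915).

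In untreated PMN-MDSC, S03 was high on Ccl24 (62.8 CPM against 35.7 to 39.4) and Slc2a1 (311 against 214 to 225), S23 on Saa3 (63.8 against 17.4 to 24.6) and H2-T22 (48.1 against 34.5 to 35.4), and S19 was low on Ifi206 (14.4 against 29.5 to 32.6). In untreated M-MDSC, S24, the library with the fewest counts, was high on Plcb1 (244 CPM against 131 to 150).

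The interaction test with edgeR passed the threshold for Ccnd2 (difference of log2 fold changes -1.753) and P2ry14 (-2.455). Both calls were lost with upper-quartile scaling and without robust estimation. On the 14 libraries with a partner by running number, both were lost without the replicate block and with it. Under the block the differences were -1.71 and -2.47. Leaving out 1 library kept the call of Ccnd2 in 2 of 15 fits and that of P2ry14 in 1 of 15.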

How the results depend on the processing

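No called fold change of a named gene and no called difference turned its sign under any alternative run. The counts of called genes for PMN-MDSC, M-MDSC, both and the interaction, which were 252, 676, 160 and 2, became 46, 43, 19 and 0 at an adjusted p under 0.001 with a fold of 2, and 611, 1136, 309 and 161 with no filter beyond 1 count. DESeq2 gave 467 in PMN-MDSC, 255 shared and 22 by the interaction, and limma voom with quality weights gave 862, 1192 and 441 for PMN-MDSC, M-MDSC and both. The interaction count was 0 with upper-quartile scaling and 0 without robust estimation. With each cell type fitted on its own libraries, M-MDSC gave 240 and both 102 genes, 94 of them among the 160, and the cause of these changes was not tested. Leaving out 1 library at a time gave 137 to 383, 310 to 873, 89 to 196 and 0 to 24 genes. Of the 160 shared genes, 140 to 160 stayed called under the other tools, scalings and filters and 89 to 140 under the leave-outs. The median difference of the MHC class II list was -0.764, but 0.337 without S28 and 0.635 with limma voom. With bases before the start only, the ISRE share of shared genes that rose was 32.6%. The running numbers of the columns follow the order of the replicate numbers in the titles, though no label states the tie. A replicate block by running number, S03 with S04 and so on, was chosen after seeing the data and gave an interaction count of 1 over the 14 libraries with a partner (0 without the block on these libraries), and 1017 genes at an unadjusted p under 0.05 (874 without). The gene called was Ifitm6, named after its values were seen, and Ccnd2 and P2ry14 had adjusted p-values of 0.106 and 0.117 (edgeR). Under the block the counts of genes with an unadjusted p under 0.05 were 17 for the antiviral, 9 for the Schlafen and PYHIN, 12 for the glycolysis and 12 for the hypoxia list (higher in PMN-MDSC), and 14 for the cell cycle and 2 for the macrophage list (higher in M-MDSC). On the same 14 libraries without the block these counts were 11, 7, 13, 10, 12 and 8. Deviations from the group means correlated at 0.0333 to 0.49 within the 7 pairs, over 0.1 in 5 of them, and 6 PMN-MDSC and 5 M-MDSC libraries correlated best with their own number, across genes, which are not independent. The library with 10 counts could give no value. Depth limits the low genes, since 3 counts were 0.634 to 3.92 CPM.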
